A study of Mus musculus with 4 samples.

Results

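The immunity-related GTPases (IRGs) of the mouse were followed through every cell type and sample of a single-cell RNA sequencing (scRNA-seq) experiment on tumour-infiltrating immune cells. The 6 genes Iigp1, Irgm1, Irgm2, Igtp, Tgtp1 and Tgtp2 were taken by name from the 32285 genes of the count matrix, and all 6 had counts. They were chosen by their levels in these cell types and samples, that is, listed with the UMI counts of all 4 samples already known. Every level and ratio below is therefore a description of these libraries and not a test.

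IRGs are large GTPases that cells make in response to interferons. The effector subfamily, called GKS after its nucleotide-binding motif, includes Iigp1 (protein Irga6) and the Tgtp1 and Tgtp2 pair (Irgb6), which load onto the membrane around intracellular parasites and bacteria and help to break it. The regulatory subfamily, called GMS, consists of Irgm1, Irgm2 and Igtp (Irgm3), which sit on the membranes of the cell itself and keep the effectors in their inactive form there. Macrophages are the cells in which the family has been studied most, as part of the cell-autonomous defence that interferon-gamma switches on.

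CD45+ cells were sorted from subcutaneous melanomas grown in Rag2-/- mice, whose own T and B cells do not develop, from YUMM1.7 cells (a Braf-driven mouse line) that express ovalbumin. All 4 samples received ovalbumin-specific OT-1 CD8+ T cells on day 7 and were taken on day 10, 72 h later. The NTT sample came from the line Y1.7_NTT_3A6, naive to targeted therapy. The RTT sample came from Y1.7_RTT_2B12, which had been made resistant to BRAF inhibition and was kept in dabrafenib in culture. RTT_ROSA26 cells were resistant cells with a control guide against the Rosa26 locus, and RTT_PTGS12KO cells were resistant cells without Ptgs1 and Ptgs2, the genes of the prostaglandin-forming cyclooxygenases. That knockout was in the cancer cells and not in the immune cells measured here, so it could not be checked in these counts. The sample protocols give 1 tumour per condition, whereas a figure legend of the study speaks of pooled tumours. With 1 sample per group there was no replicate, and no p-value is given.

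The files held 33368 cells under 17 cell type names, with 6836 to 10296 cells and 69332486 to 146829369 UMIs (unique molecular identifiers, 1 per captured transcript) per sample. The median depth was 7292.5 UMIs per cell in NTT and 12219 to 13280 in the other 3. Levels are given as UMIs per 1e6 UMIs of the same cells (CPM), and differences as log2 ratios of CPM + 1, with 95% intervals that cover counting error only. A gene was called when it differed by at least 2-fold and reached 10 CPM in the mean of the 2 samples. Ptprc, the gene of CD45, was at 727, 329.9, 346 and 433 CPM in NTT, RTT, RTT_ROSA26 and RTT_PTGS12KO, and among cell types it fell as low as 15.9 and 17.4 CPM in the cells named Myofibrobl of RTT and RTT_ROSA26. Of the barcode sequences, 98 occurred in more than 1 of the 3 chip loads and none occurred more than once within a load.

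Of the 6 genes, 5 lie on chromosome 11 in 2 groups of neighbours (GRCm38, GENCODE M21, all annotated as protein-coding). Irgm1 (chr11:48861968-48871683), Tgtp1 (chr11:48985327-48994172) and Tgtp2 (chr11:49057194-49064206) lie on the minus strand within 202.2 kb. Igtp (chr11:58199556-58207591) and Irgm2 (chr11:58199618-58222782) lie on the plus strand within 23.2 kb and overlap by 7974 bases, of which 162 are exonic in both.

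The promoters of the 5 genes on chromosome 11 were searched, because interferon-responsive promoters are known for a pair of short motifs, and that of Iigp1 was not analysed here. A repeat of GAAA after any 2 bases (GAAA, NN, GAAA) is the core that interferon-regulatory factors bind, and TTCNNNGAA is a core known from interferon-gamma-responsive promoters. Both strands were searched in 300 bases, from 250 before to 50 after the start site given by RefSeq (GRCm38.p6), and 5 of the 6 members were matched by symbol. The GAAA repeat was found in all 5, against 3.44% of 32851 promoters, and TTCNNNGAA in 4 of the 5, against 8.30%. In Tgtp1, Tgtp2, Igtp and Irgm2 the motifs lay within 20 bases of each other, an arrangement found in 0.161% of all promoters. Irgm1 had 2 overlapping copies of the GAAA repeat, which begin 30 and 24 bases before the start, and no match to TTCNNNGAA in this window. The windows around the matches are shown 5′ to 3′ on the strand of the gene, with the matched motifs in capitals, since the shared spacing can be seen only in the letters. They cover chr11:48871415-48871495 (Irgm1), chr11:48992294-48992368 (Tgtp1), chr11:49064253-49064327 (Tgtp2), chr11:58199477-58199551 (Igtp) and chr11:58214868-58214942 (Irgm2). Those of Irgm1, Tgtp1 and Irgm2 lie inside the GENCODE gene spans given above, which begin further upstream than the RefSeq start sites used here. The Irgm2 window lies past the end of Igtp, so the overlap of these genes holds for the GENCODE spans.
Irgm1: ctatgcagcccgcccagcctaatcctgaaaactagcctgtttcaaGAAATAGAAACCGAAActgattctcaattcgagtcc
Tgtp1: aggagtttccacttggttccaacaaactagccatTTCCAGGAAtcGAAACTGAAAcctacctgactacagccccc
Tgtp2: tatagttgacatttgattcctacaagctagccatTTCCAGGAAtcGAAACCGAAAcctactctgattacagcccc
Igtp: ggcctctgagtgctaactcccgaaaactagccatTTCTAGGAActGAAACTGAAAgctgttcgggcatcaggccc
Irgm2: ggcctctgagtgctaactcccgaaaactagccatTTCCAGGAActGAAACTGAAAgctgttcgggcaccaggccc

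In each of the last 4 windows TTCNNNGAA and the GAAA repeat were separated by the same short gap. Over the 300 bases, the promoters of Tgtp1 and Tgtp2 were 70.1% identical and those of Igtp and Irgm2 were 74.4% identical. These matches describe the letters only, and binding was not measured. The windows of Igtp and Irgm2 were alike in most bases, and so were those of Tgtp1 and Tgtp2. The matches in these promoters are therefore not separate ones, and nothing is read from the shares of all promoters. Iigp1 is the 1 member elsewhere, on the plus strand of chromosome 18 (chr18:60376027-60392634).

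In the CD45+ cells as a whole, the transcripts of the family were abundant in NTT and RTT_PTGS12KO and scarce in RTT and RTT_ROSA26. The summed level of the 6 genes was 1016 CPM in NTT and 738 CPM in RTT_PTGS12KO, but 151 CPM in RTT and 58.8 CPM in RTT_ROSA26. Each of the 6 genes had the same order of samples, with NTT highest, then RTT_PTGS12KO, RTT and RTT_ROSA26. Bulk sums of this kind mix the number of cells of each type with the RNA of each cell, and the 2 are taken apart further below.

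The effectors spanned the widest range of levels. In the order NTT, RTT, RTT_ROSA26 and RTT_PTGS12KO, Iigp1 was at 465, 58.7, 16.2 and 382 CPM. In the same order the levels were 39.3, 2.64, 0.780 and 15.3 CPM for Tgtp1, and 47.9, 6.59, 2.14 and 38.4 CPM for Tgtp2. For all 3 effectors the level in either high sample was several times that in either low sample, and no chip load of a high sample reached down to a load of a low one.

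The regulators followed the same order over a narrower range. Irgm1, which also takes part in autophagy and in the survival of blood-forming cells, was at 228, 41.2, 20.7 and 154 CPM in NTT, RTT, RTT_ROSA26 and RTT_PTGS12KO. Igtp was at 190.2, 29.9, 13.3 and 119.9 CPM, and Irgm2 at 45.2, 11.7, 5.77 and 29.1 CPM. Irgm2 had the smallest spread between samples, and it was still lowest in RTT_ROSA26. The 3 loads of a sample are technical repeats: the highest load was 1.03 to 1.13 times the lowest for every member in NTT and up to 1.97 times for Tgtp1 in RTT_ROSA26, where that gene had 86 UMIs in all.

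**Figure D1:**
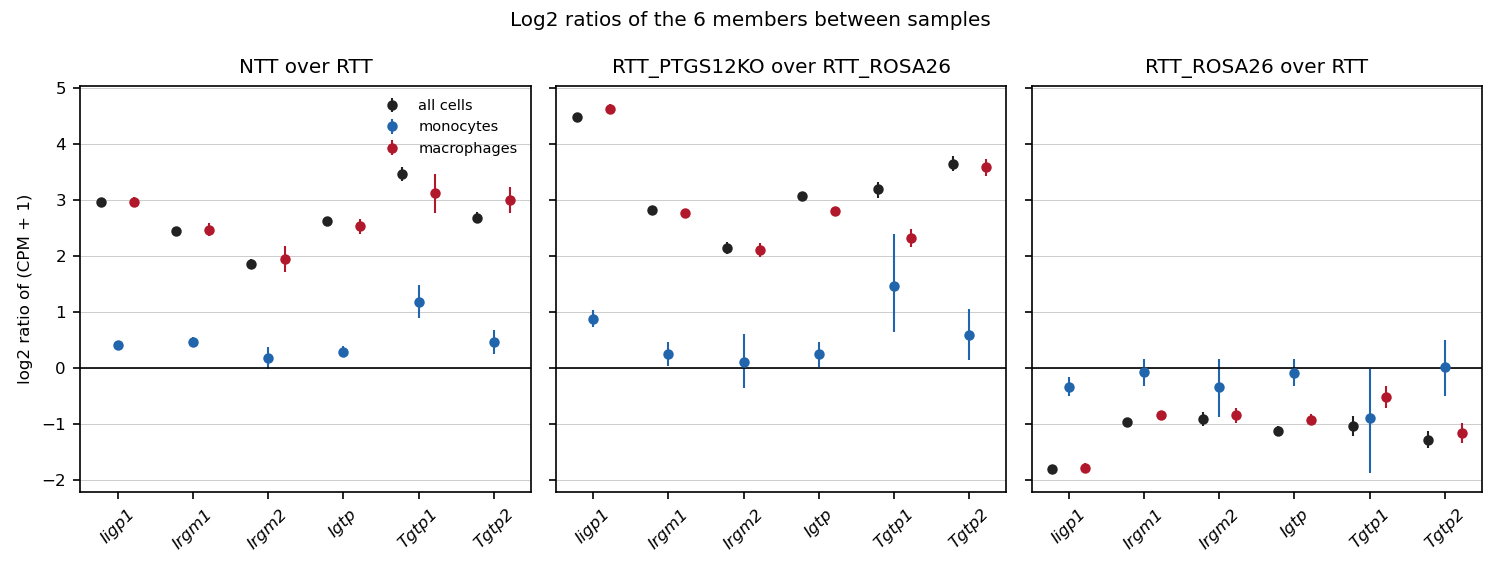
Log2 ratios of CPM + 1 (y axis) of the 6 members (x axis) in a panel for each comparison, with points for all cells, monocytes and macrophages and bars for the 95% counting interval. In macrophages Iigp1 stood at 2.97 for NTT over RTT and 4.63 for RTT_PTGS12KO over RTT_ROSA26, whereas in monocytes it stood at 0.41 and 0.89.

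The comparison of NTT with RTT asks how the immune infiltrate differs between the therapy-naive and the resistant tumour. Over all cells the family sum was 6.74-fold higher in NTT (log2 ratio 2.75, 2.72 to 2.77). Tgtp1 had the highest log2 ratio, 3.47 (3.34 to 3.60), and Irgm2 the lowest, 1.87 (1.78 to 1.95), with Iigp1 at 2.97 (2.93 to 3.002). All 6 members were at least 2-fold higher in NTT, where 7.23% of the 6999 genes with enough counts were. The median log2 ratio was 2.66 over the members and -0.09 over all genes tested. Since the members were chosen with this difference known, nothing is read from the contrast with the background.

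The comparison of RTT_PTGS12KO with RTT_ROSA26 asks what the loss of the cyclooxygenases from the cancer cells does to the infiltrate. The family sum was 12.5-fold higher in RTT_PTGS12KO (log2 ratio 3.63, 3.59 to 3.66). Iigp1 was 23.6-fold higher, with a log2 ratio of 4.48 (4.41 to 4.54), and Tgtp2 followed at 3.65 (3.52 to 3.78). The regulators stood lower, at 3.08 for Igtp, 2.84 for Irgm1 and 2.15 for Irgm2. All 5 members with enough counts were at least 2-fold higher, against 3.56% of 7083 genes, and Tgtp1 did not reach 10 CPM in the mean. The median log2 ratio over all 6 members, Tgtp1 included, was 3.14 and that of all genes tested was -0.12.

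Both resistant samples with intact Ptgs1 and Ptgs2 serve as controls, and they were not alike. The family sum in RTT_ROSA26 was below that in RTT, with a log2 ratio of -1.34 (-1.38 to -1.30), and Iigp1 stood at -1.80 (-1.87 to -1.73). Of the 3 members with enough counts, Iigp1 and Igtp were at least 2-fold lower in RTT_ROSA26, against 1.04% of 7142 genes. With a pseudocount of 10 CPM 1 of them was called, against 0.476% of genes. The median over all 6 members, with those too low to be called, was -1.07 and the median of all genes tested 0.06. A difference of this size between 2 control tumours bears on both other comparisons, which share RTT and RTT_ROSA26 with this one. Against RTT_ROSA26, the family level in RTT_PTGS12KO is set beside the lower of the 2 controls.

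Within cells of 1 kind the picture divided. In the cells that the authors named monocytes (Monocyte_1, Monocyte_3 and Infl_Mono), the family was high in all 4 samples. Iigp1 was at 548, 413, 329 and 611 CPM in NTT, RTT, RTT_ROSA26 and RTT_PTGS12KO, and Igtp at 222, 181, 172 and 204 CPM. In these cells RTT_PTGS12KO had the highest Iigp1 and NTT the highest Igtp, and RTT_ROSA26 was the lowest for both. Irgm2 showed no difference beyond counting error in either comparison, with log2 ratios of 0.18 (-0.01 to 0.38) for NTT over RTT and 0.11 (-0.35 to 0.61) for RTT_PTGS12KO over RTT_ROSA26.

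The log2 ratio of the family sum in monocytes was 0.42 (0.37 to 0.46) for NTT over RTT, 0.60 (0.49 to 0.70) for RTT_PTGS12KO over RTT_ROSA26 and -0.21 (-0.32 to -0.10) for RTT_ROSA26 over RTT. The direction of the last value rested on 1 load: it was 0.003 without the third chip load and -0.37 without the first, and the second fell to 0.33 without Iigp1. Only Tgtp1 was at least 2-fold higher, both in NTT over RTT (45.3 against 19.4 CPM, background 1.69%) and in RTT_PTGS12KO over RTT_ROSA26 (29.3 against 9.98 CPM, background 1.58%). The latter rests on 10 UMIs in the RTT_ROSA26 monocytes, and both calls were lost with a pseudocount of 10 CPM, where 1.05% and 0.734% of all genes were called. In RTT_ROSA26 over RTT no member of 6 was at least 2-fold lower, where 1.58% of 6440 genes were. The members' medians were 0.44, 0.42 and -0.20 in the 3 comparisons, beside 0.03, -0.01 and 0.01 over all genes tested.

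The monocyte names did not mark the same cells in each sample. Infl_Mono made up 86 of the 144 named monocytes of RTT_ROSA26 but 635 of 4015 in the RTT_PTGS12KO sample, and 1616 of 6619 in NTT against 138 of 522 in RTT, so the class values also hold a different mix of names. A list of 7 macrophage markers summed to 15200 CPM in the RTT cells named monocytes, against 2943 CPM for 7 monocyte markers. In NTT the sums were 5237 and 7649 CPM, in RTT_ROSA26 9252 and 6567 CPM, and in RTT_PTGS12KO 6265 and 5816 CPM. When cells were instead classed by which of these lists gave more UMIs, the family stood in monocytes at 1289, 391, 141 and 1169 CPM in NTT, RTT, RTT_ROSA26 and RTT_PTGS12KO. The log2 ratios of the family sum then became 1.72, 3.04 and -1.46, so the small differences between monocytes hold for the authors' names and not for a class set by these markers. That class is a range and not a type, with 28.5%, 5.35%, 7.24% and 14.0% of the classed cells of NTT, RTT, RTT_ROSA26 and RTT_PTGS12KO having less than 2-fold between the lists. Only 39.1% of the marker-classed monocytes of RTT, and 17.3% of those of RTT_ROSA26, carried a monocyte name, against 99.6% in NTT and 88.6% in RTT_PTGS12KO. Among the leading genes of Monocyte_1 were Nos2, Cxcl9 and Cfb, which are interferon-gamma-responsive genes themselves.

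In macrophages (TAM_C1q, TAM_Spp1, TAM_cycling, TAM_H2Ab1 and Ctsk_Macro) the members differed between samples nearly as in the whole. Iigp1 was at 328, 40.8, 11.1 and 299 CPM, Irgm1 at 188, 33.0, 18.0 and 128 CPM, and Tgtp2 at 44.5, 4.67, 1.56 and 29.9 CPM. NTT and RTT_PTGS12KO were again above both other samples for each of these genes, although NTT had only 308 cells under a macrophage name. The log2 ratio of the family sum was 2.74 (2.68 to 2.80) for NTT over RTT, 3.56 (3.52 to 3.60) for RTT_PTGS12KO over RTT_ROSA26 and -1.21 (-1.26 to -1.16) for RTT_ROSA26 over RTT.

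The macrophage class also held a different mix of names in each sample. TAM_H2Ab1, which has Iigp1 among its leading genes, was 192 of the 308 macrophages of NTT but 63 of 6734 in RTT, where TAM_C1q (3412 cells) and TAM_Spp1 (2057 cells) were most of the class. NTT had only 12 and 20 cells of those types. The types with enough cells in both samples went opposite ways: the family sum was lower in NTT in TAM_H2Ab1, with a log2 ratio of -0.46 (-0.57 to -0.35), and higher in TAM_cycling, with a log2 ratio of 2.43 (2.32 to 2.53). The macrophage value for NTT over RTT is therefore not one of like cells. Between RTT_PTGS12KO and RTT_ROSA26 TAM_H2Ab1 differed too, with 364 of 5207 and 11 of 5993 cells.

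Iigp1 was 26.9-fold higher in RTT_PTGS12KO macrophages than in RTT_ROSA26 macrophages, and Irgm1 7.12-fold. All 5 members with enough counts in macrophages were at least 2-fold higher in NTT than in RTT (background 5.1%) and in RTT_PTGS12KO than in RTT_ROSA26 (background 2.26%). Tgtp1, at 18.7 CPM in NTT macrophages and no more than 6.93 CPM in the other 3 samples, did not reach 10 CPM in the mean of either pair. Of 3 members with enough counts, Iigp1 alone was at least 2-fold lower in RTT_ROSA26 than in RTT, where 0.68% of 7058 genes were. The medians over all 6 members, with those too low to be called, were 2.75, 2.78 and -0.88, beside 0.00, -0.08 and 0.06 over all genes tested. Classed by marker UMIs, macrophages gave the family sum 965, 141, 51.8 and 672 CPM in NTT, RTT, RTT_ROSA26 and RTT_PTGS12KO. Of the cells so classed, 11.5%, 94.6%, 99.1% and 73.4% carried a macrophage name, so in NTT the marker class held mostly other cells than the named one.

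The levels of the 6 members by cell type name and sample are shown where a type had at least 50 cells in a sample, which gave 42 sums.

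**Figure D2:**
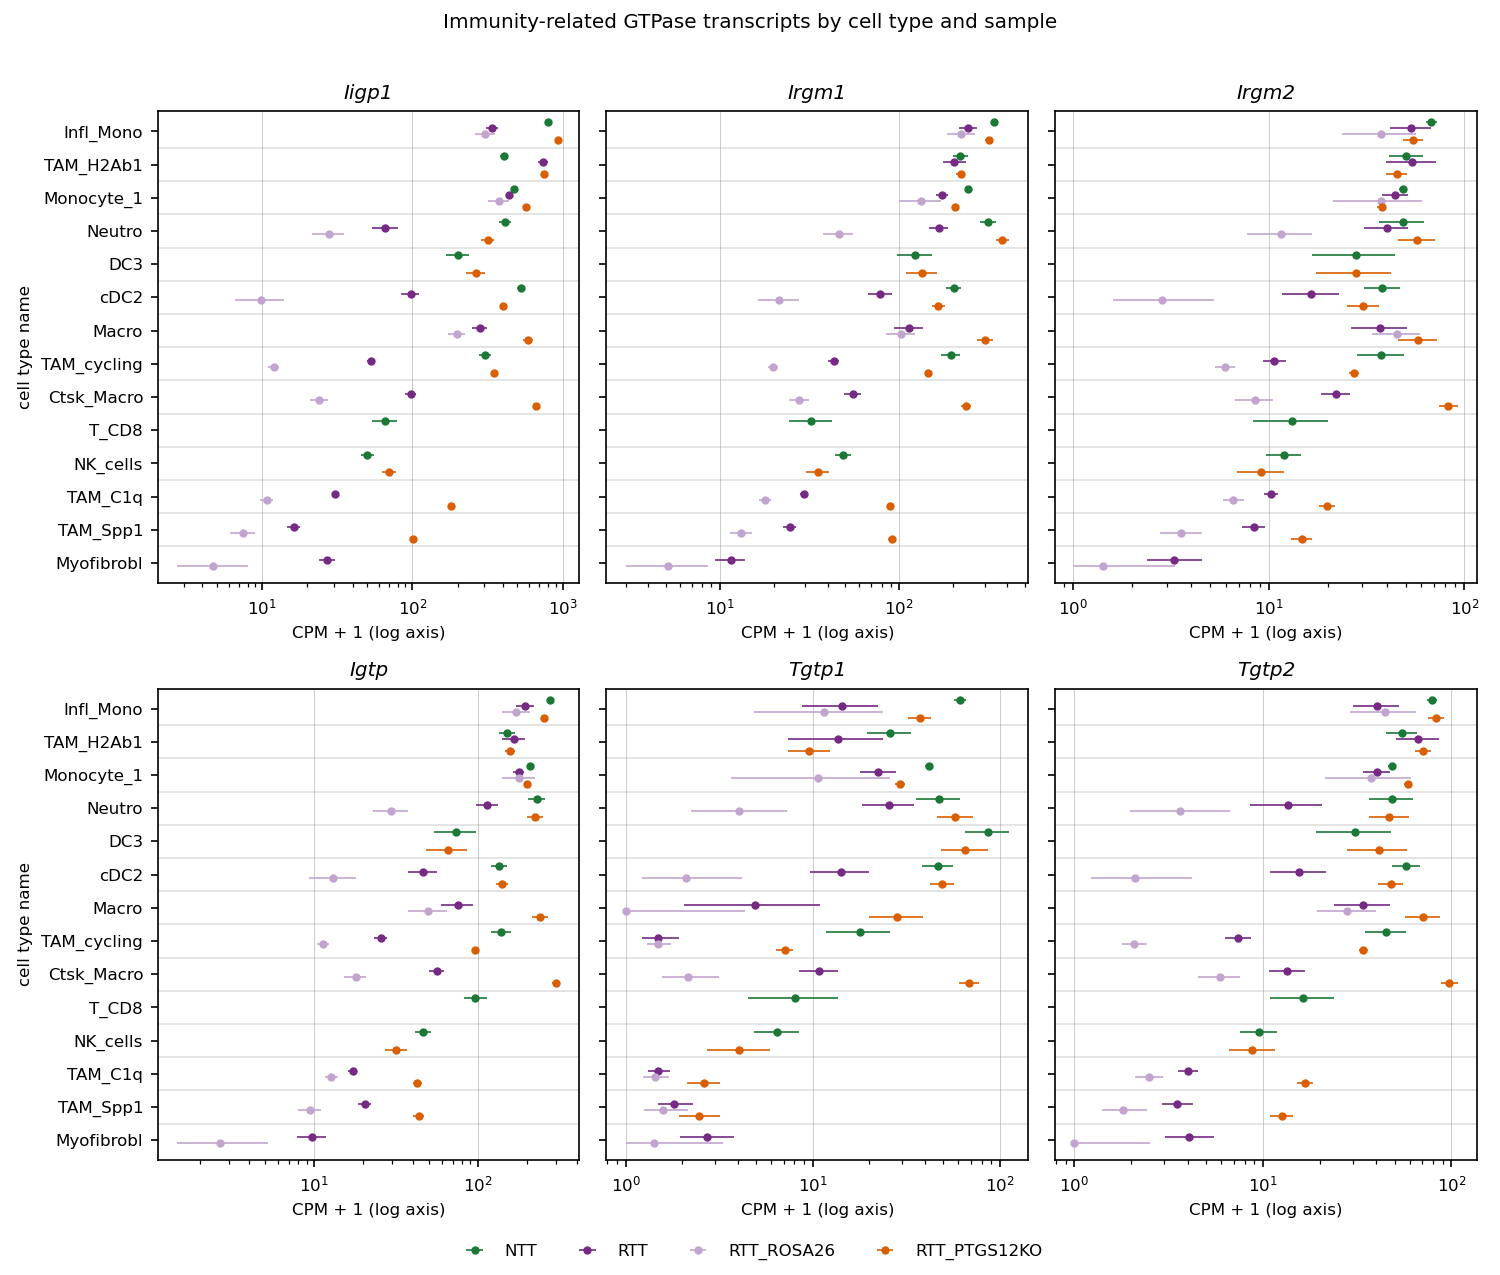
Level of each member as CPM + 1 on a log axis (x axis) for each cell type name (y axis), with a point per sample and the 95% counting interval as a bar. Iigp1 in Monocyte_1 lay between 376 and 567 CPM in the 4 samples, whereas in cDC2 it ran from 8.75 to 524 CPM.

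Iigp1 was highest in Infl_Mono in NTT (799 CPM, 783 to 815) and RTT_PTGS12KO (938 CPM), in TAM_H2Ab1 in RTT (743 CPM, 686 to 802) and in Monocyte_1 in RTT_ROSA26 (376 CPM, 319 to 440). The RTT_ROSA26 value overlapped in its interval with Infl_Mono of that sample (304 CPM, 261 to 353). In NTT, Infl_Mono was followed by cDC2 at 524, Monocyte_1 at 474, Neutro at 414 and TAM_H2Ab1 at 407 CPM, and the intervals of the last pair overlapped. The lowest levels in NTT were in T_CD8 at 64.7 and NK_cells at 49.2 CPM, whose separate intervals also overlapped. In RTT_PTGS12KO, TAM_H2Ab1 (752 CPM), Ctsk_Macro (662), Macro (588) and Monocyte_1 (567) came next, of which only Macro and Monocyte_1 had overlapping intervals.

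In the low samples most macrophage names stood far below the monocyte names. In RTT, Iigp1 was at 439 CPM in Monocyte_1, 339 in Infl_Mono, 279.6 in Macro, 96.7 in Ctsk_Macro, 29.7 in TAM_C1q and 15.3 in TAM_Spp1. In RTT_ROSA26 the monocyte names and Macro stood at 196.8 CPM and above, and no other type exceeded 26.7 CPM. There, TAM_cycling, TAM_C1q, cDC2, TAM_Spp1 and Myofibrobl followed from 10.9 down to 3.73 CPM, and each of the last 4 overlapped in its interval with the type ranked just above. The part of RNA free in the pooled suspension in levels this low was not tested.

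Over all 42 sums together, the other members had their highest levels in other types. Within NTT, however, Irgm1, Irgm2, Igtp and Tgtp2 were also highest in Infl_Mono, at 337, 66.9, 274 and 77.8 CPM. The interval of Irgm1 there overlapped that of Neutro. The highest of the 42 levels were as follows. Irgm1 was highest in neutrophils of RTT_PTGS12KO (375 CPM). Irgm2, Igtp and Tgtp2 were highest in Ctsk_Macro of RTT_PTGS12KO, at 81.9, 299.5 and 96.7 CPM, a type led by Ctsk, Mmp9, Oscar and Acp5, genes of osteoclasts. Tgtp1 was highest in DC3 of NTT (85.2 CPM), the dendritic cells with Ccr7, Fscn1 and Ccl22 among their leading genes.

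The spread of the members across samples depended on the cell type. In Monocyte_1 the highest sample was 1.51 times the lowest for Iigp1, 1.17 times for Igtp and 4.20 times for Tgtp1. The value for Tgtp1 rests on 4 UMIs in RTT_ROSA26. In TAM_H2Ab1 the highest was 1.85 times the lowest for Iigp1 and 1.08 times for Irgm1 over 3 samples, without RTT_ROSA26, which had only 11 such cells, so this spread is not set beside that of Monocyte_1. In cDC2, by contrast, Iigp1 ran over a 59.9-fold range, and in TAM_cycling over a 31.7-fold range. Iigp1 was itself among the 10 leading genes of TAM_H2Ab1, so its level there is part of what set these cells apart.

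For RTT_PTGS12KO over RTT_ROSA26, 9 cell types had at least 50 cells in both samples. Iigp1, Irgm1 and Tgtp1 were higher in RTT_PTGS12KO beyond counting error in 9 of 9, Igtp and Tgtp2 in 8, and Irgm2 in 6, and no member was lower in any. For Tgtp1 this rests on 0, 3 and 4 UMIs in Macro, cDC2 and Monocyte_1 of RTT_ROSA26. No share of all genes is given for single cell types, so these counts are not set against a background. The log2 ratio of Iigp1 ran from 0.59 in Monocyte_1 to 5.37 in cDC2 (402 against 8.75 CPM, 45.9-fold). In between lay TAM_cycling with 346 against 10.9 CPM (31.7-fold), Ctsk_Macro with 662 against 22.9 CPM (28.9-fold) and Neutro with 316 against 26.7 CPM (log2 ratio 3.52). The regulators reached their largest log2 ratios in Ctsk_Macro for Irgm1 (3.09) and Igtp (4.07) and in cDC2 for Irgm2 (3.43).

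For NTT over RTT, 6 types could be compared. Iigp1 was higher in NTT in 5 of them, up to a log2 ratio of 2.65 in neutrophils, and Tgtp1 was higher in all 6. In TAM_H2Ab1 Iigp1 was instead lower in NTT, at 407 against 743 CPM. The log2 ratio there was -0.87 (-1.02 to -0.72), and the intervals of Irgm1, Irgm2, Igtp and Tgtp2 in that type included 0. For RTT_ROSA26 over RTT, Iigp1 was lower in 8 of 10 types and higher in none, with log2 ratios from -3.32 in cDC2 to -0.16 in Infl_Mono. The counts of types in these comparisons have no share of all genes beside them either.

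How far the whole-sample differences followed the cell type shares was examined by exchanging either the shares or the levels of the types between the samples of a pair. Shares here are shares of all UMIs of a sample and not of its cells. With RTT levels but the cell type shares of NTT, the family sum would be 736 CPM, against 151 as measured. With NTT levels and RTT shares it would be 490.4 CPM, against 1015 in NTT over the 16 types that could be used. In log2 units, shares alone gave 2.28, levels alone 1.695 and both together 2.74, so the parts do not add up to the whole. The minimum of 50 cells was not applied here. RTT shares put 42.4% of the weight on TAM_C1q and 19.8% on TAM_Spp1, whose NTT levels come from 84 family UMIs in 12 cells and 34 in 20 cells, so the value for NTT levels rests on few cells.

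For RTT_PTGS12KO over RTT_ROSA26 the weight lay the other way: shares alone gave 2.19 and levels alone 3.29, of 3.63 for both. The value for shares alone also rests on few cells. RTT_PTGS12KO shares put 24.9% of the weight on Monocyte_1, whose RTT_ROSA26 level comes from 316 family UMIs in 54 cells. For RTT_ROSA26 over RTT, shares alone gave -0.10 and levels alone -0.90, of -1.34. With equal weights for the 5 types that had enough cells in all samples, the log2 ratios were 1.09, 1.59 and -0.56. The cells named monocytes held 74.4% of all UMIs in the NTT sample and 28.4% in RTT_PTGS12KO, against 4.20% in RTT and 0.909% in RTT_ROSA26. Of the cells they were 80.1%, 6.55%, 2.11% and 39.0% in NTT, RTT, RTT_ROSA26 and RTT_PTGS12KO. In the same order they held 86.8%, 24.8%, 11.9% and 44.7% of the family's UMIs, in each sample more than their share of all UMIs or of cells. These sums use the authors' names, whose change of meaning between samples is given above.

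**Figure D3:**
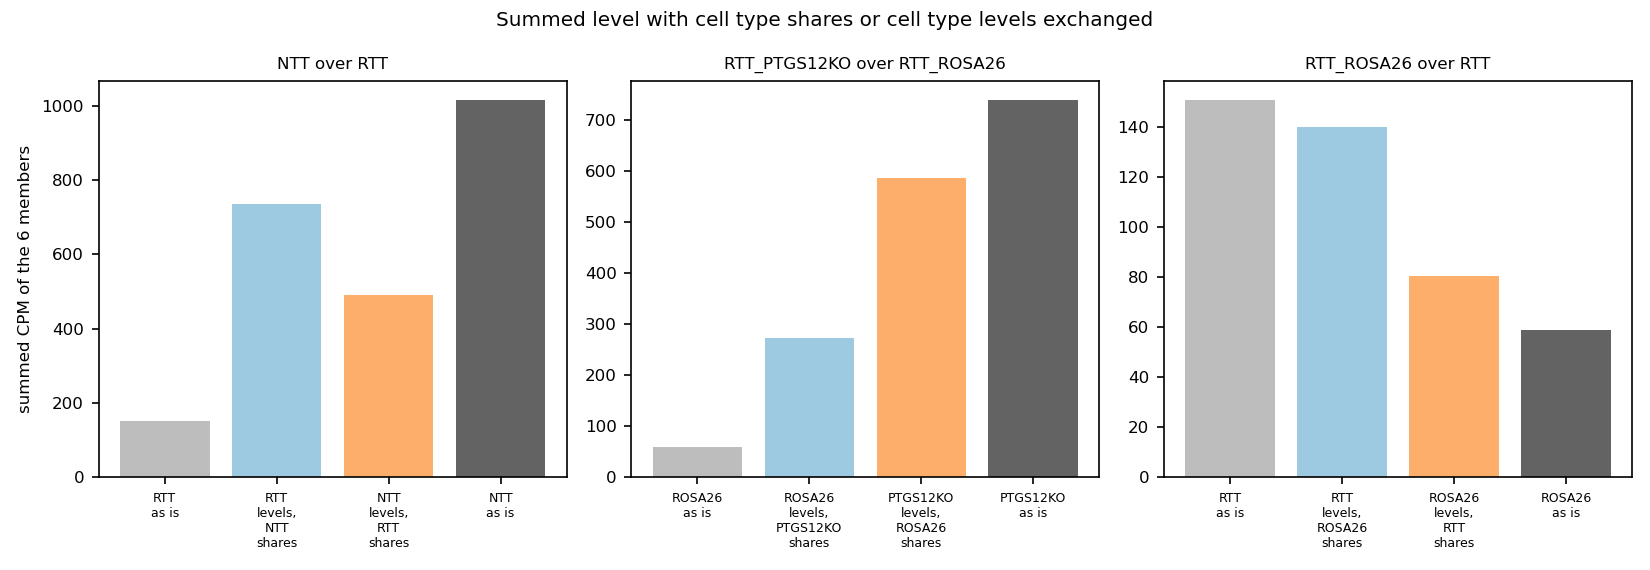
Summed CPM of the 6 members (y axis, bars from 0) for each comparison, as measured in each sample and with the cell type shares or the cell type levels of the pair exchanged. For NTT over RTT the bar with exchanged shares (736 CPM) stood above that with exchanged levels (490.4 CPM), and for RTT_PTGS12KO over RTT_ROSA26 it stood below (272 against 586 CPM).

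The balance of effector to regulator transcripts also differed between samples. For each UMI of the 3 GMS genes there were 1.19, 0.821, 0.480 and 1.44 UMIs of the 3 GKS genes, in the order NTT, RTT, RTT_ROSA26 and RTT_PTGS12KO. In macrophages the ratios were 1.08, 0.717, 0.385 and 1.41, and in monocytes 1.21, 1.13, 0.974 and 1.52. RTT_PTGS12KO had the highest ratio and RTT_ROSA26 the lowest in both. A ratio of UMIs is not one of protein, so its level in 1 sample is not read by itself.

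The log2 difference of this ratio in macrophages was 0.59 (0.47 to 0.70) for NTT over RTT, 1.87 (1.78 to 1.97) for RTT_PTGS12KO over RTT_ROSA26 and -0.90 (-1.01 to -0.79) for RTT_ROSA26 over RTT. In monocytes the same differences were 0.09 (0.00 to 0.18), 0.64 (0.44 to 0.85) and -0.21 (-0.44 to 0.01), the last of which was within counting error. These were less settled: the first was 0.40 without Iigp1 and 0.41 in the class set by markers, the second 0.37 without the third chip load, and the last 0.07 without that load and 0.023 in the class set by markers. Iigp1 carried most of the effector UMIs: its share of all family UMIs was 45.8%, 39.0%, 27.5% and 51.7% in NTT, RTT, RTT_ROSA26 and RTT_PTGS12KO. Without Iigp1 the macrophage differences were 0.94, 1.32 and -0.56, which left each with its sign, and the class set by markers gave 0.33 for NTT over RTT. The mix of macrophage names differed between these samples, as given above, and within TAM_H2Ab1 the ratio was lower in NTT (1.16) than in RTT (1.956), whereas within TAM_cycling it was higher (1.0 against 0.771).

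**Figure D4:**
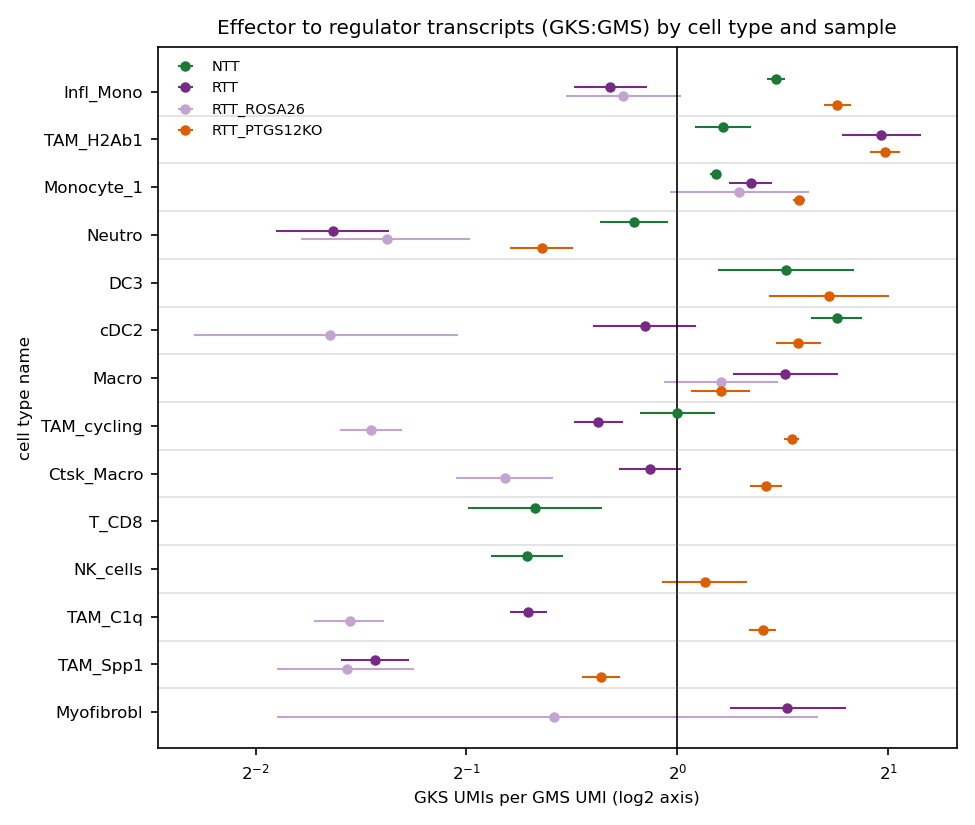
GKS UMIs per GMS UMI on a log2 axis (x axis) for each cell type name (y axis), with a point per sample, 95% intervals as bars and a line at 1 as a guide. RTT_ROSA26 lay at 0.319 in cDC2 and 0.366 in TAM_cycling, whereas RTT_PTGS12KO lay at 1.49 and 1.46 there.

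In neutrophils the ratio was 0.867, 0.322, 0.385 and 0.640 in NTT, RTT, RTT_ROSA26 and RTT_PTGS12KO, so NTT stood highest there, whereas RTT_PTGS12KO stood highest in macrophages. TAM_H2Ab1 stood at 1.981 in RTT_PTGS12KO, near its value in RTT. In cDC2 the ratio ran from 0.319 in RTT_ROSA26 to 1.69 in NTT.

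Tgtp1 and Tgtp2 are close copies, and their separate values are uncertain. The annotated transcripts compared, 1 of each gene, differed by 19 edits over their whole length (99.3% identical), and their last 500 bases, from which 3′ tags mostly come, had 0 edits. How reads that match both were counted is not given in the sources used here. Of the UMIs given to either gene, Tgtp1 had 45.02% in NTT and between 26.7% and 28.6% in the other 3 samples. Over all samples its share was 11.9% (9.54 to 14.7) in TAM_C1q and 68.2% (60.2 to 75.5) in DC3, but these sums mix samples in unequal parts. Within RTT_PTGS12KO the share was 9.29% (6.66 to 12.5) in TAM_C1q and 61.5% (49.8 to 72.3) in DC3. Within NTT, where TAM_C1q had too few cells, it was 27.6% (18.5 to 38.2) in TAM_cycling and 74.0% (62.4 to 83.6) in DC3. Within each sample these types differed by more than counting error, and what set the shares was not tested.

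**Figure D5:**
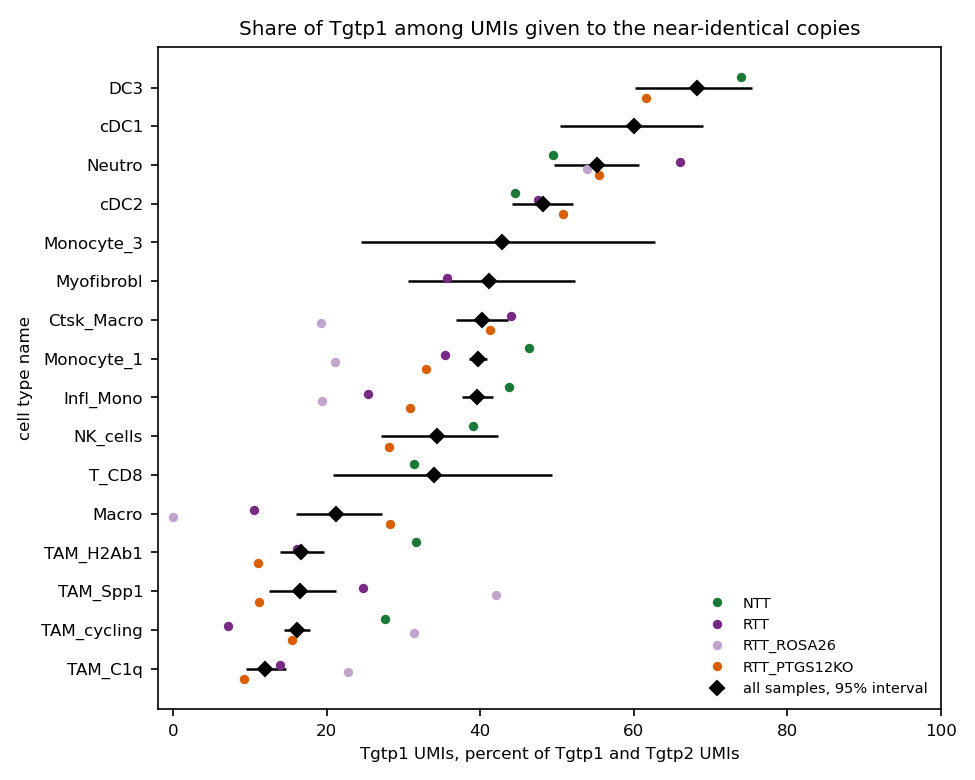
Tgtp1 UMIs as a percentage of Tgtp1 and Tgtp2 UMIs (x axis) for each cell type name (y axis), with 95% exact binomial intervals as bars. DC3 lay at 68.2% over all samples and TAM_C1q at 11.9%.

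The same differences were seen in the share of cells with a UMI, compared after each cell was thinned to 3000 UMIs. At least 1 UMI of any member was found in 84.3% of NTT cells, 22.4% of RTT, 11.01% of RTT_ROSA26 and 67.7% of RTT_PTGS12KO cells (93.4%, 48.0%, 34.7% and 86.4% before thinning). Thinning left out 208, 46, 59 and 91 cells that were shallower. For Iigp1 alone the thinned shares were 58.6%, 8.71%, 2.77% and 45.6%. In macrophages they were 51.3%, 5.01%, 1.63% and 30.1%, and in monocytes 65.3%, 50.4%, 31.9% and 68.8%. No cell type that is known to lack the family was present to set a background, and the lowest share of Iigp1 in any sum was 0.876% in TAM_Spp1 of RTT_ROSA26.

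Genes known to act with the family were counted from fixed lists. Of 9 other IRG genes in the matrix, all 5 with enough counts were at least 2-fold higher in NTT than in RTT over all cells, and 3 of 4 in RTT_PTGS12KO than in RTT_ROSA26, where 7.23% and 3.56% of all genes tested were. In the cells named monocytes the counts were 2 of 6 and 0 of 5, beside 1.69% and 1.58%. Ifi47 (Irgd), a further effector beside Tgtp2 on chromosome 11, was at 351, 59.7, 26.9 and 232 CPM in NTT, RTT, RTT_ROSA26 and RTT_PTGS12KO. Irgq, an atypical member of the family, was at 3.03, 5.98, 4.85 and 4.07 CPM and too low to be counted. Gm12250 and Gbp11 were not analysed here. The guanylate-binding proteins, which act together with IRGs at pathogen vacuoles, were higher in 9 of 9 in both comparisons, with Gbp2 at 732, 141, 39.97 and 659.8 CPM. In the cells named monocytes, 1 of 9 was higher in NTT than in RTT and 2 of 9 in RTT_PTGS12KO than in RTT_ROSA26, beside 1.69% and 1.58% of all genes tested. The control samples differed here as well: over all cells 6 of 7 guanylate-binding genes and 1 of 2 other IRG genes were at least 2-fold lower in RTT_ROSA26 than in RTT, beside 1.04% of all genes, as were 3 of 8 genes of the type II and none of 10 of the type I interferon list.

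The ATG8 conjugation genes, whose products are needed for IRGs to load onto vacuoles, were counted in the same way. None of the 10 genes tested for NTT over RTT, nor of the 9 tested for RTT_PTGS12KO over RTT_ROSA26, reached 2-fold in either direction over all cells, with median log2 ratios of -0.03 and -0.04. With 7.23% and 3.56% of all genes tested called higher, a count of 0 in a list this short is near the background and is not a result about these genes. Atg5, for example, was at 65.7, 66.1, 64.3 and 57.4 CPM in the 4 samples.

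Of the type II interferon list, 7 of 10 genes were at least 2-fold higher in NTT than in RTT and 6 of 10 in RTT_PTGS12KO than in RTT_ROSA26, where 7.23% and 3.56% of all genes tested were. In the cells named monocytes these were 0 and 1 of 9, beside 1.69% and 1.58%. The receptor gene Ifngr1 was at 162, 203, 159.7 and 119 CPM in NTT, RTT, RTT_ROSA26 and RTT_PTGS12KO. Of 11 type I genes tested, 7 were higher in each comparison over all cells, beside the same 7.23% and 3.56% of all genes. In the cells named monocytes 2 of 11 were higher in NTT than in RTT, but in RTT_PTGS12KO against RTT_ROSA26 none of 12 was higher and 4 were lower, where 1.58% and 1.92% of all genes were, with a median log2 ratio of -0.35. Ifit3 was at 45.4 CPM there against 236.5 CPM in RTT_ROSA26. Ifnb1, also among the 4, was at 0.336 CPM in RTT_PTGS12KO monocytes against 53.9 CPM in those of RTT_ROSA26. It reached the minimum level through RTT_ROSA26 alone. Infl_Mono, whose leading genes are of this kind, was the larger part of the named monocytes of RTT_ROSA26 only. Within Infl_Mono, Ifit3 was at 208 CPM in RTT_PTGS12KO and 376 CPM in RTT_ROSA26, and within Monocyte_1 at 23.1 and 50.9 CPM. In the same order Rsad2 was at 588 and 1021 CPM in Infl_Mono but at 101 and 29.1 CPM in Monocyte_1. Isg15 was at 1226 and 897 CPM in Infl_Mono and at 371.5 and 390.5 CPM in Monocyte_1. The part of the mix of names in the class values was not tested.

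Ifng itself, the gene of interferon-gamma, was at 64.7 CPM in NTT and 72.4 CPM in RTT_PTGS12KO, against 0.608 CPM in RTT and 0.653 CPM in RTT_ROSA26. NK and T cells together were 9.70%, 0.176%, 0.410% and 3.41% of cells. Their marker genes were also higher in the 2 samples with the high family levels: the 6 NK genes summed to 1221, 12.2, 21.5 and 282 CPM over all cells, and the 7 T cell genes to 114.5, 14.3, 8.99 and 33.8 CPM. The NK genes were higher in RTT_ROSA26 than in RTT, and the T cell genes were lower. The share of NK and T cells rests on 28 cells in RTT_ROSA26 and 14 in RTT. Its intervals overlapped (0.272% to 0.591% and 0.0961% to 0.295%). Within the cells named monocytes or macrophages the T cell genes summed to between 0.998 and 3.26 CPM in every sample. The NK genes summed there to 8.28, 3.47, 7.98 and 7.71 CPM in monocytes and to 28.5, 6.23, 5.24 and 10.5 CPM in macrophages, in the order NTT, RTT, RTT_ROSA26 and RTT_PTGS12KO. The part that NK and T cells have in the levels of the family was not tested.

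The genes most like each member were found by Pearson's correlation of log2(CPM + 1) over the 42 sums of cell type and sample, among 7096 genes. These sums share samples, depth and base composition, so r is a description only. Iigp1 was closest to Tgtp2 (r = 0.989), Gm4951 (0.972) and Batf2 (0.963), and Tgtp2 to Iigp1, Gm4951 (0.965) and Batf2. Irgm1 was closest to Ifi47 (0.973), Irgm2 (0.966) and Gbp2 (0.964), and Irgm2 to Irgm1, Ifi47 (0.958) and Igtp (0.955). Igtp was closest to Ifi47 (0.978), Gbp4 (0.967) and Irgm1 (0.960). Tgtp1 stood apart with Slc4a8 (0.865), Herc6 (0.862) and Gbp5 (0.858), and its r with the other members was 0.755 to 0.824.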

How the data were processed

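Single-cell 3′ libraries of CD45+ cells from 4 samples carried sample oligos and were run as 1 pool in 3 chip loads. The authors deposited whole-number UMI counts per gene and cell, made with Cell Ranger on mm10, together with a table that gives each cell's sample and cell type name (Seurat 4.3.0). The deposited cells passed the authors' filter of more than 1000 genes, under 15% mitochondrial and under 40% ribosomal reads. Cell types had been clustered by the authors together with cells of other experiments, over variable genes that can include the members. The handling of reads that match several genes is not given in the sources used here.

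The 6 members and all gene and marker lists were chosen with earlier results of these data known. Counts were summed per sample and cell type (at least 50 cells, except where shares or levels of types were exchanged) or class (monocytes, 3 names; macrophages, 5 names, without Macro) and divided by the summed UMIs times 1e6. Log2 ratios used a pseudocount of 1 CPM, with exact intervals conditional on the summed UMIs. Intervals were Poisson for levels and Clopper-Pearson for shares, at 95%, and normal on the log scale for differences of the GKS to GMS ratio. Counts were thinned to 3000 UMIs per cell with a fixed seed. With 1 sample per group, the planned ratios had no test. Named genes were the 6 members, the 3 genes most correlated with each, and genes of the fixed lists. Cells with oligos of more than 1 sample are dropped when samples are assigned, and no doublet caller was run. An alternative left out the 5% of cells with most UMIs.

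The ratio was tested on simulated data for RTT_PTGS12KO over RTT_ROSA26 in macrophages (7086 genes), where 100.0% of the genes made 2-fold or 4-fold higher or 2-fold lower, and 81.6% of 49 genes made 4-fold lower, were within 0.25 log2 units. The simulated counts were Poisson draws around a mean per gene shared by both samples, without spread between tumours or cells. They therefore cover the calculation and counting error only. Python 3.11.15, numpy 2.4.6, scipy 1.17.1, pandas 2.3.3 and matplotlib 3.10.9 were used, with edgeR 4.0.16 in R 4.3.3 for TMM factors only.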

Additional observations from a re-analysis of the deposited data

Results flagged for a closer look

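Of the 6 cell types compared between NTT and RTT, 5 had more Iigp1 in NTT and 1 had less. In TAM_H2Ab1 the level was 407 CPM in NTT (192 cells) and 743 CPM in RTT (63 cells), a log2 ratio of -0.87 (-1.02 to -0.72), opposite in direction to the other 5. The difference between this type and the others was not tested, since each group has 1 sample. RTT_PTGS12KO had a level of 752 CPM in the same type.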

How the results depend on the processing

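Each group held 1 sample, so neither the spread between tumours nor a p-value could be had, and intervals cover counting error only. No paired analysis was possible because there was a single tumour sample in every group. Depth limits Tgtp1 most, with 10 UMIs in the RTT_ROSA26 monocytes. Of 189 alternative values for the family sum, the GKS to GMS ratio and the counts of members, 115 stayed within the counting interval or 1.5 times the count and the others moved beyond it. Of 450 values for single members, 300 stayed. Sign changed in 3 of the former and 7 of the latter, all in monocytes for RTT_ROSA26 over RTT. The GKS to GMS ratio cannot change with a pseudocount or TMM. Leaving out Iigp1 and weighting types as in the second sample were chosen after seeing the data. Causes of the moves were not tested.

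Values below are log2, in the order NTT over RTT, RTT_PTGS12KO over RTT_ROSA26 and RTT_ROSA26 over RTT. For the family sum in all cells, equal weights for the 5 types with enough cells in all samples gave 1.09, 1.59 and -0.56, and weights as in the second sample gave 1.695, 3.29 and -0.90. A pseudocount of 10 CPM gave 2.68, 3.44 and -1.22, and leaving out Iigp1 gave 2.57, 3.03 and -1.09. TMM gave 2.89 and 3.76, and leaving out Tgtp1 and Tgtp2 gave 2.71 and 3.59 in NTT over RTT and RTT_PTGS12KO over RTT_ROSA26. For NTT over RTT the stricter filter of cells gave 2.77, and leaving out the 5% of cells with most UMIs gave 2.79. For the family sum in macrophages, a pseudocount of 10 CPM gave 2.65, 3.34 and -1.08, and leaving out Iigp1 gave 2.57, 2.88 and -0.94. TMM gave 3.66 and -1.31, and the class by marker UMIs 3.67 and -1.43, in RTT_PTGS12KO over RTT_ROSA26 and RTT_ROSA26 over RTT. For NTT over RTT, leaving out the 5% of cells with most UMIs gave 2.90. In monocytes the class by marker UMIs gave 1.72, 3.04 and -1.46, and leaving out Iigp1 gave 0.33 in RTT_PTGS12KO over RTT_ROSA26.

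For the GKS to GMS ratio, leaving out Iigp1 gave 0.75, 1.27 and -0.60 in all cells, 0.94, 1.32 and -0.56 in macrophages, and 0.40 in monocytes for NTT over RTT. The class by marker UMIs gave 0.33 in macrophages and 0.41 in monocytes for NTT over RTT, and 0.023 in monocytes for RTT_ROSA26 over RTT. Counts of members called, with the share of all genes called in the same way, were 0 (1.05%) for NTT over RTT and 0 (0.734%) for RTT_PTGS12KO over RTT_ROSA26 in monocytes with a pseudocount of 10 CPM. For RTT_ROSA26 over RTT the count in all cells was 4 (1.02%) with no minimum level and 1 (0.476%) with a pseudocount of 10 CPM, and in macrophages 2 (0.427%) with no minimum level and 2 (0.884%) with TMM.

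Leaving out each chip load in turn, the family sum ran from 2.70 to 2.77, 3.56 to 3.70 and -1.47 to -1.26 in all cells. It ran from 2.73 to 2.75, 3.47 to 3.69 and -1.35 to -1.12 in macrophages, and from 0.37 to 0.45, 0.41 to 0.70 and -0.37 to 0.003 in monocytes. The last value, 0.003, was that without load 3. The GKS to GMS ratio ran from 0.48 to 0.60, 1.54 to 1.65 and -0.88 to -0.71 in all cells, from 0.55 to 0.61, 1.72 to 2.04 and -1.11 to -0.77 in macrophages, and from 0.04 to 0.15, 0.37 to 0.88 and -0.41 to 0.07 in monocytes.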

Other observations

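The 2 large monocyte names differed in the family in a way that depended on the sample. Infl_Mono, led by Ifit1bl1, Ifit3, Cmpk2 and Ifit2 (antiviral genes of the type I interferon response), had more Iigp1 than Monocyte_1 in NTT (799 against 474 CPM, log2 ratio 0.75, 0.72 to 0.79) and in RTT_PTGS12KO (938 against 567 CPM, 0.73, 0.68 to 0.77). In RTT it had less (339 against 439 CPM, -0.37, -0.53 to -0.22), and in RTT_ROSA26 the interval included 0 (304 against 376 CPM, -0.30, -0.62 to 0.02). Irgm1, a regulator, was higher in Infl_Mono in all 4, with log2 ratios of 0.48, 0.48, 0.75 and 0.64 in NTT, RTT, RTT_ROSA26 and RTT_PTGS12KO. Igtp and Irgm2 were higher in Infl_Mono in NTT and RTT_PTGS12KO, but their intervals included 0 in RTT and RTT_ROSA26. The family sum stood at 0.61, -0.02, 0.04 and 0.62 in the same order, with intervals that included 0 in RTT and RTT_ROSA26.

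Lymphoid cells held the family at lower levels than the monocytes of their own samples. The family sum was 167 CPM in NK cells of NTT and 153 CPM in those of RTT_PTGS12KO, a 1.09-fold difference, and 226 CPM in T_CD8 cells of NTT. Igtp was at 95.5 CPM in the T_CD8 cells, and Iigp1 at 64.7 CPM. DC3, the Ccr7+ dendritic cells, had 537 CPM in NTT and 592 CPM in RTT_PTGS12KO.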
